A study of Mus musculus with 12 samples.

Results

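Starburst amacrine cells are the cholinergic interneurons of the inner retina. They release acetylcholine and GABA, and their outward-going dendrites carry the direction signal that direction-selective ganglion cells read. In this Drop-seq series of mouse retina the cells were chosen by measured values: those with at least 200 detected genes and a unique molecular identifier (UMI) of at least 2 of 4 genes were taken. These are CHAT (choline acetyltransferase, which makes acetylcholine), SLC18A3 (the vesicular acetylcholine transporter), SLC5A7 (the high-affinity choline transporter that takes choline back up) and MEGF10 (a cell-surface protein with which starburst cells of a mouse retina recognise and space out their own kind). The rule found 83 cells among 24772, or 0.335%, and gene symbols are printed in capitals as in the deposited table.

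Retinas came from C57B6 pups. The oxygen-induced retinopathy (OIR) pups were raised by a foster mother, breathed 75% oxygen on postnatal days 7 to 12 and then room air, which first halts and later deranges vessel growth in the retina. The control (NORM) pups stayed with their own mother in room air, so fostering and oxygen cannot be told apart. Tissue was taken on day 14 (P14) or day 17 (P17) after birth, and the retina was used whole or depleted of rods. OIR gave 3 whole-retina and 2 rod-depleted libraries at P14, and 2 whole-retina and 1 rod-depleted library at P17. NORM gave 1 library for each age and fraction. Separate animals are not named for the 12 libraries, and a p-value here weighs a difference against library-to-library spread alone, some or all of which may be technical. In the fits across genes that spread is largely borrowed from all genes tested.

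Starburst cells arise as a pair of populations, with ON cells displaced to the ganglion cell layer and OFF cells in the inner nuclear layer. Each population spreads its dendrites in its own thin sublayer. Their differentiation depends on ISL1, a LIM-homeodomain factor, and SOX2 is kept on in the mature cells. GABA is made by GAD1 and GAD2 and loaded into vesicles by SLC32A1. Voltage-gated calcium channels at the dendrite tips trigger release of both transmitters.

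To show what lies upstream of the genes that picked these cells and of the genes that led their profile, the 250 bases before the RefSeq start of 4 genes are given (GRCm38.p6, all on the minus strand, 5′ to 3′). The windows are chr14:32465910-32466159 for CHAT, chr17:54299035-54299284 for SLC5A7, chr1:22806159-22806408 for RIMS1 and chr13:116309689-116309938 for ISL1. Capitals mark a CCAAT box (CCAAT or its reverse complement).
CHAT: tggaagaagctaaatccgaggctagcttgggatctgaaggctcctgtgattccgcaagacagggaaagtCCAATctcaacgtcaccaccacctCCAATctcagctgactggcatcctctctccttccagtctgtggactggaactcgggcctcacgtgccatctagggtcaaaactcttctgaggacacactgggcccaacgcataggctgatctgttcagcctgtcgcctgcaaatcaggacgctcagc
SLC5A7: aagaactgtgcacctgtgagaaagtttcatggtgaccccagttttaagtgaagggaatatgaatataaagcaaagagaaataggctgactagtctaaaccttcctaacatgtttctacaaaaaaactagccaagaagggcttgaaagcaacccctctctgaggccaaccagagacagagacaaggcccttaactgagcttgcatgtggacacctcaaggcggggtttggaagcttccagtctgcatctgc
RIMS1: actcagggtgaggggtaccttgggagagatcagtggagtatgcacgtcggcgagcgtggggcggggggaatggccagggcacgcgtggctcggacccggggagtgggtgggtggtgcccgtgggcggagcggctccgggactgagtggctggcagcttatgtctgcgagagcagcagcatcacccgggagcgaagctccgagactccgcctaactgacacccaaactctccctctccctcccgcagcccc
ISL1: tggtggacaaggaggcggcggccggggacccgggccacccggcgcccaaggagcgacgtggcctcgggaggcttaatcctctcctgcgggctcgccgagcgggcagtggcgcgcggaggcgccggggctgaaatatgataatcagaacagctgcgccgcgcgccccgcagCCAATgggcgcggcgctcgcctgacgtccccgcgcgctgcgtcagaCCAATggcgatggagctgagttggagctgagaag
CHAT and ISL1 each held 2 CCAAT boxes and SLC5A7 and RIMS1 held none. None of these 4 windows held TAATGG or TAATTG (homeodomain cores), ACAATG (a SOX core) or GCCNNNGGC (a TFAP2 palindrome) on either strand. TAATTG and CCAAT share letters where they meet as CCAATTA, and the other motifs were counted apart. CCAAT was added after the sequences were seen. Among all 27025 promoters of the table, 7.53% held TAATGG, 8.30% TAATTG, 12.2% ACAATG, 15.4% GCCNNNGGC and 37.5% CCAAT in this window. A promoter was at hand for 219 of the 294 genes that were higher in starburst than in other GABAergic amacrine cells (described further on). TAATGG stood in 5.94% of these, against 5.11% of the 3543 promoters of all genes tested. ACAATG stood in 4.11% against 7.87%, GCCNNNGGC in 24.7% against 25.2%, TAATTG in 4.57% against 5.45% and CCAAT in 37.0% against 40.5%. These shares are descriptions of letters in a short window and say nothing of binding.

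The rule rested on CHAT and SLC5A7. CHAT was detected in 81 of the 83 cells (202 UMIs in all) and SLC5A7 in 81 (333 UMIs), while MEGF10 was detected in 25 (38 UMIs). By combination, 58 cells had CHAT and SLC5A7 without MEGF10, 21 had all 3, 2 had CHAT and MEGF10, and 2 had SLC5A7 and MEGF10. SLC18A3 has no row in the table. Its gene (chr14:32462438-32464850) lies inside CHAT (chr14:32408203-32465989) on the same strand, and whether CHAT UMIs include reads of it was not tested. Median UMIs per cell were 2 for CHAT and 3 for SLC5A7 in the chosen cells. Just outside the rule, 38 cells had CHAT alone, 54 had SLC5A7 alone and 418 had MEGF10 alone. The first 2 of these groups were shallower, with median totals of 957.5 and 1107 UMIs against 2942 in the chosen cells, and RIMS1, a gene described below, was detected in 18 and 19 of them. Of the cells with MEGF10 alone, 67.2% had RLBP1, a Müller glia gene, and 11.7% had LHX1, a horizontal cell gene.

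The label was checked against genes the rule did not use. ISL1 was detected in 90.4% of the 83 cells, GAD1 in 86.7% and SLC32A1 in 72.3%. SOX2 was detected in 49.4% of them, against 1.61% of 1492 other GABAergic and 2.18% of 919 glycinergic amacrine cells. SLC10A4, an orphan transporter of cholinergic and monoaminergic vesicles, was in 45.8%, against 0.335% and 0.218%. FRMD7, a FERM-domain protein needed for horizontal direction selectivity in mouse starburst cells, was in 14.5% and in none of the cells of the other 2 classes. FEZF1, a zinc-finger factor of ON starburst cells in mouse, was in 8.43%, against 0% and 0.109%. GAD2 was detected in 2 of the 83 cells. The acetylcholine-degrading enzyme ACHE was in 19.3%, against 22.9% of the other GABAergic and 21.4% of the glycinergic cells. Median depth was 2942 UMIs in starburst, 2301 in other GABAergic and 1693 in glycinergic cells, so detection is somewhat easier in the first.

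**Figure D1:**
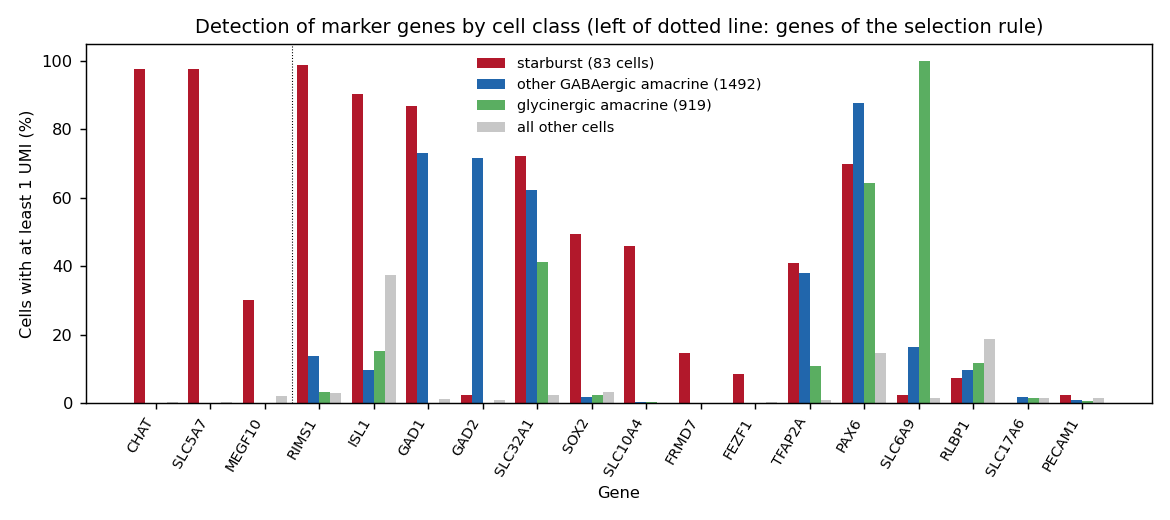
Percentage of cells with at least 1 UMI of each gene (y axis) in starburst amacrine cells (red), other GABAergic amacrine cells (blue), glycinergic amacrine cells (green) and all other cells (grey). Left of the dotted line are the genes that chose the cells. The other 2 amacrine classes were required to lack those genes, other GABAergic cells to have GAD1 or GAD2, and glycinergic cells to have SLC6A9 and neither GAD gene. RIMS1 (98.8%), ISL1 (90.4%), SOX2 (49.4%) and SLC10A4 (45.8%) stand above the other amacrine classes in starburst cells, and GAD2 (2.41%) stands low.

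Markers of other cell types were detected unevenly. At least 2 rod markers were found in 51.8% of starburst cells, at least 2 rod bipolar markers in 55.4%, at least 2 horizontal cell markers in 53.0% and at least 2 Müller glia markers in 38.6%. No cell had 2 ganglion cell, microglia, endothelial or pericyte markers. No starburst cell had the ganglion cell genes RBPMS, SLC17A6, POU4F1, POU4F2 or NEFL, the horizontal cell genes LHX1 or ONECUT1, or the vessel genes CLDN5, CDH5, LY6C1 or TEK. Of 8 microglia and macrophage markers, 6 were at 0, and so were 3 of 5 glycinergic markers (SLC6A5, EBF3, NEUROD2). RLBP1, a Müller glia gene, was detected in 7.23% of starburst cells, against 9.52% of other GABAergic and 11.8% of glycinergic cells (median depths 2942, 2301 and 1693 UMIs in the amacrine classes and 1052 over all cells). The 8 rod markers summed to 17.0 per 10000 UMIs in starburst cells, against 28.3 in other GABAergic and 34.3 in glycinergic cells. The 8 Müller markers summed to 13.5, against 36.4 and 72.6, and they include DKK3, a gene called lower in starburst than in other GABAergic cells below. In 43 of the 83 cells at least 3 markers of another class were detected, and such lists include ISL1 (rod bipolar) and CALB1 (horizontal), which starburst cells are known to express. The totals of 28 cells lay above the 95th percentile of their own library, and no doublet caller was run. Of cell barcodes, 14 occurred in more than 1 library, none of them in a starburst cell.

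A single cell stood apart from the other 82. It came from rod-depleted OIR replicate 1 at P14, had CHAT and MEGF10 but no SLC5A7, and held 1 UMI of RIMS1. It had the highest count of CYR61 (37 of 54 UMIs over all starburst cells), APOE (33 of 67), GLUL (28 of 56), JUN (33 of 57), DUSP1 (25 of 48), IER2 (16 of 40) and FOS (60 of 326). APOE and GLUL are Müller glia genes, and the others are early-response genes. Its library, with 3 starburst cells, entered the comparisons of shares below and none of the fits across genes.

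The 83 cells came from 10 of the 12 libraries, and 54 were from OIR and 29 from NORM retinas. At P14, whole-retina OIR replicates 1, 2 and 3 gave 7, 11 and 14 cells and rod-depleted OIR replicates 1 and 2 gave 3 and 0. At P17, whole-retina OIR replicates 1 and 2 gave 12 and 4 and the rod-depleted OIR library gave 3. The NORM libraries gave 22 (whole) and 5 (rod-depleted) at P14, and 2 (whole) and 0 (rod-depleted) at P17. The libraries held 569 to 3409 kept cells each, with median totals of 432 to 1794.5 UMIs.

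The NORM P14 whole-retina library has to be named before any comparison. It supplied 22 of the 29 NORM cells. Its columns carry another replicate number than its label, which makes its assignment the weakest of the 12. Over all of its cells HSPA8 (the constitutive heat-shock cognate 70 chaperone) stood at 0.567 per 10000 UMIs, against 8.06 to 16.3 in each of the other 11 libraries. RPS3A1 (a ribosomal protein gene) stood at 0.120 there, against 2.29 to 7.51. What sets this library apart was not tested, and results that rest on it are given with and without it where a fit without it exists.

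As a share of kept cells, starburst cells made up 0.314 ± 0.247% of OIR libraries and 0.376 ± 0.381% of NORM libraries (SD, n = 8 and n = 4). OIR libraries ran between 0% and 0.776% with a median of 0.257%, and NORM libraries were at 0%, 0.249%, 0.351% and 0.903%. The ranges overlapped fully, and an exact two-sided permutation test within age and fraction gave p = 0.639 (adjusted p = 0.639 over 3 share tests). The smallest p this design allows is 0.0139. The difference changed sign without the NORM P14 whole-retina library, at 0.114 percentage points. Rod-depleted libraries held 0.112 ± 0.109% and whole-retina libraries 0.494 ± 0.258% (SD, n = 5 and n = 7). That exact permutation test gave p = 0.025, which did not pass the adjustment (adjusted p = 0.075). With each cell thinned to 500 UMIs the exact permutation p was 0.175. P17 libraries held 0.204 ± 0.150% and P14 libraries 0.428 ± 0.326% (SD, n = 5 and n = 7; exact permutation p = 0.10, adjusted p = 0.15). Between libraries of the same age, fraction and run, OIR held 0% against 0.249% in NORM (rod-depleted, P14) and 0.440% against 0.903% (whole retina, P14), lower in both pairs, with no test. A library at 0 still allows a small share, counted here as 3 cells over the library's total: 0 of 1809 cells in rod-depleted OIR replicate 2 at P14 allows up to 0.166%, and 0 of 2492 in the rod-depleted NORM library at P17 up to 0.120%. The exact 95% intervals of these libraries are wider and reach 0.204% and 0.148%.

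**Figure D2:**
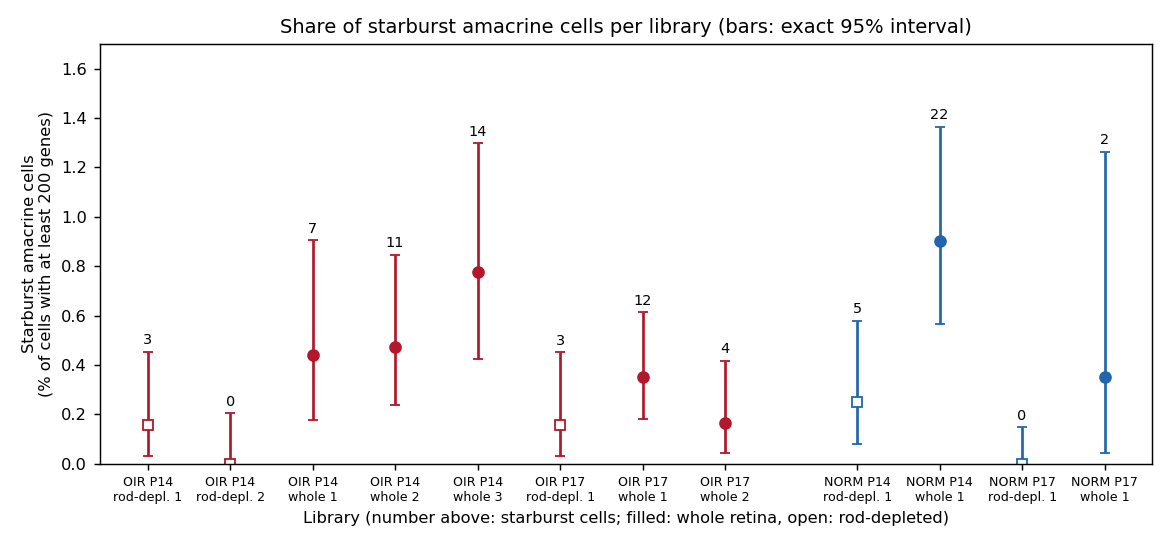
Starburst amacrine cells as a percentage of cells with at least 200 detected genes (y axis) in each library, OIR in red on the left and NORM in blue on the right. Filled circles are whole-retina and open squares rod-depleted libraries, bars are exact (Clopper-Pearson) 95% intervals that cover counting error only, and the number above each bar is the count of starburst cells. Within each age and fraction the intervals of OIR and NORM libraries overlap, and the highest point is the NORM P14 whole-retina library (0.903%).

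What sets starburst cells apart from their neighbours was tested within libraries, against other GABAergic amacrine cells and against glycinergic amacrine cells. Other GABAergic cells had GAD1 or GAD2 and at least 1 of PAX6, TFAP2A, TFAP2B and SLC32A1, and glycinergic cells had SLC6A9 and an amacrine gene with neither GAD gene. Both lacked all genes of the starburst rule, and starburst cells in which those genes were missed may still be among them. The 4 libraries with at least 10 starburst cells entered (whole-retina OIR replicates 2 and 3 at P14, OIR replicate 1 at P17 and NORM at P14). A level is the mean over the cells of a library of UMIs per 10000, and log2 differences are of log2(level + 0.5), tested with limma with library as a block. Genes that chose a class were left out of the test.

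Against other GABAergic cells, 294 genes were higher and 448 lower in starburst cells among 4631 tested (adjusted p under 0.05). Called genes made up 16.0% of those tested, 6.35% higher and 9.67% lower. The 4 starburst values lay above all 4 other values for 299 genes (6.46%) and below them for 454 (9.8%). The median log2 difference over all tested genes was -0.13. The median was -0.05 when levels were averaged over libraries before the log. All 294 and 448 genes kept their direction on those averaged levels. Without the NORM P14 whole-retina library, 549 genes were called.

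RIMS1, a scaffold of the presynaptic active zone that tethers calcium channels and primes vesicles, showed the largest difference. In starburst cells it stood at 84.1, 103 and 65.1 per 10000 in the whole-retina OIR libraries (P14 replicates 2 and 3, P17 replicate 1) and at 120 in NORM. In other GABAergic cells of the same libraries it stood at 0.928, 0.620, 0.522 and 1.69. The groups were far apart in every library (log2 difference 6.05 ± 0.19 SE, adjusted p = 1.3e-69). It was detected in 82 of the 83 starburst cells (2313 UMIs), in 13.6% of other GABAergic cells and in 3.05% of glycinergic cells. Over all 10 libraries with starburst cells its level ran between 25.6 and 120 with a median of 60.1.

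CALB2 (calretinin, a calcium-binding protein) averaged 60.9 ± 14.0 in starburst and 3.05 ± 1.20 in other GABAergic cells (SD, n = 4 libraries each; log2 difference 4.14 ± 0.18). CALB1 (calbindin) averaged 8.76 ± 3.85 and 0.579 ± 0.144 (2.98 ± 0.26). MEGF11, the close relative of MEGF10 that also acts in the spacing of mouse retinal cells, averaged 10.4 ± 3.56 in starburst and 0.163 ± 0.083 in other GABAergic cells (3.99 ± 0.27). HECW1, a HECT-type ubiquitin ligase, averaged 12.2 ± 0.726 and 0.360 ± 0.165 (3.90 ± 0.25), and GNG7, a G protein gamma subunit, 10.1 ± 3.08 and 0.210 ± 0.075 (3.86 ± 0.27). All had adjusted p-values of at most 3.5e-20 in limma, and their groups did not overlap.

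SCG2 (secretogranin II, a granule protein and peptide precursor) averaged 93.6 ± 19.8 in starburst and 11.2 ± 2.49 in other GABAergic cells (log2 difference 3.01 ± 0.14). POMC, the precursor of melanocortins and beta-endorphin, averaged 8.79 ± 7.37 and 0.0911 ± 0.0689 (3.37 ± 0.31), the most uneven of the leading genes across libraries. TGFB3, a ligand of the TGF-beta family, averaged 6.56 ± 0.852 and 0.135 ± 0.0739 (3.47 ± 0.28). NPY (neuropeptide Y) averaged 24.6 ± 14.9 and 3.33 ± 0.946 (2.53 ± 0.21). All 4 genes passed the limma test with adjusted p-values of 1.7e-18 or less. These p-values and SEs borrow the spread of all genes. For POMC, which ran between 0.663 and 15.5 in starburst cells, they do not measure its own spread between libraries.

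CARTPT (the CART peptide precursor) averaged 0.304 ± 0.382 in starburst and 13.1 ± 8.24 in other GABAergic cells (log2 difference -3.96 ± 0.26). MEIS2, a homeodomain factor, had 1 UMI in the starburst cells of these 4 libraries and 2259 in the other GABAergic cells, a 156-fold lower level with an exact 95% counting interval of 27.9 to 6152. PNMAL2 had 3 and 1877 UMIs (43.1-fold lower, 14.7 to 209). FRMD5, a FERM-domain protein, had 1 and 1267 (87.3-fold, 15.6 to 3452), and SYT7, a slow calcium sensor of release, had 1 and 1018 (70.2-fold, 12.6 to 2774). GNG2, NECAB1, ELAVL4 and AI593442 had none, against 1066, 849, 876 and 911 UMIs. Taking 3 UMIs in the summed starburst cells as the floor, they were at least 24.5-fold, 19.5-fold, 20.1-fold and 20.9-fold lower. TKT (transketolase) averaged 0.740 ± 0.250 and 9.26 ± 2.49 (-2.96 ± 0.25), FILIP1L 0.336 ± 0.282 and 5.51 ± 1.40 (-2.88 ± 0.28), and DKK3, a secreted Dickkopf-family protein, 1.60 ± 0.884 and 12.7 ± 2.13 (-2.78 ± 0.23).

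**Figure D3:**
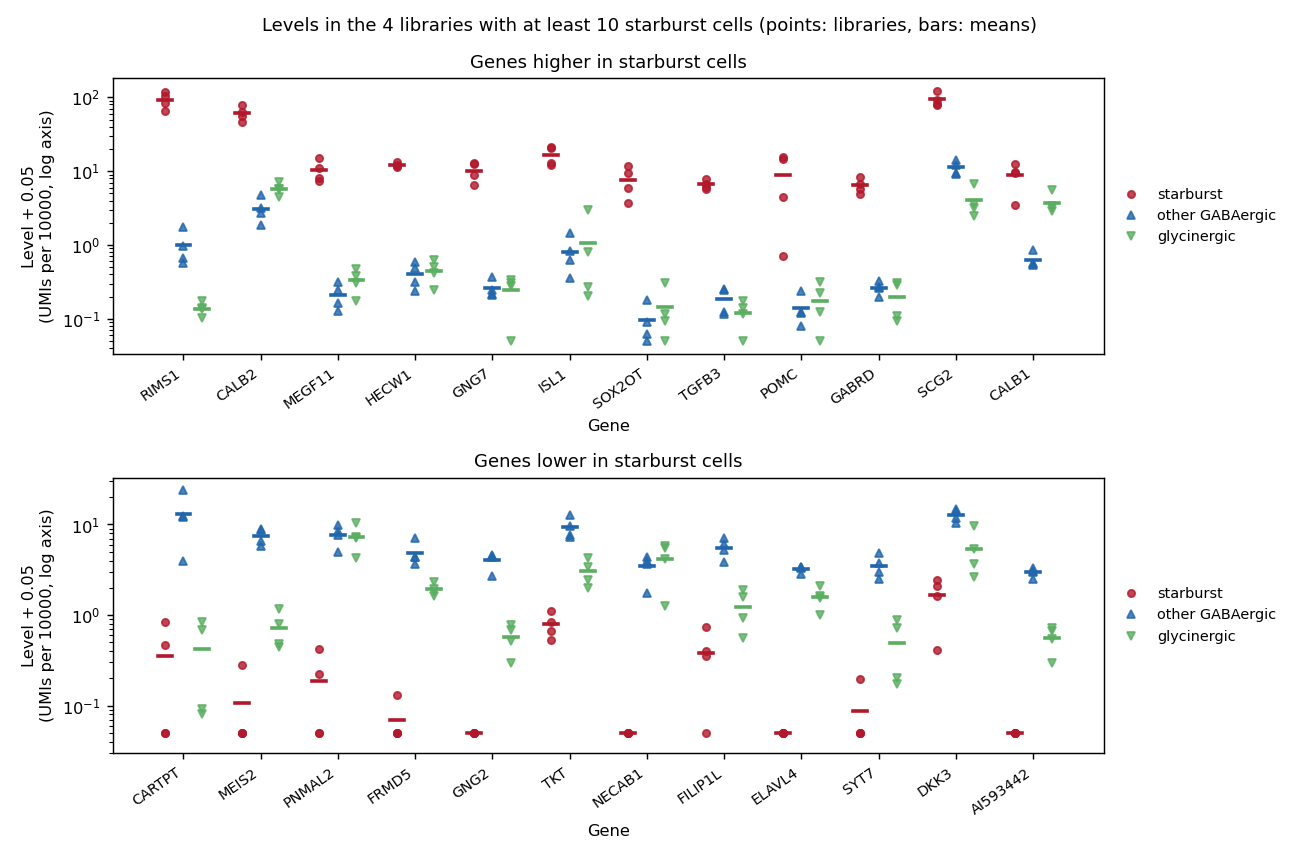
Level per library (y axis, UMIs per 10000 plus 0.05, log axis) of the 12 genes with the largest higher and the 12 with the largest lower difference between starburst and other GABAergic amacrine cells. Points are the 4 libraries with at least 10 starburst cells, horizontal bars are means, and values at the bottom of the lower panel (0.05) are levels of 0. Glycinergic cells are drawn in green for reference. Starburst cells (red) lie apart from other GABAergic cells (blue) in every gene shown, and POMC has the widest red spread (0.663 to 15.5).

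Against glycinergic cells 352 genes were higher and 395 lower among 4641 tested (16.1% called, 7.58% higher and 8.51% lower), and 614 were called without the NORM P14 whole-retina library. Non-overlapping genes numbered 337 on the higher side (7.26%) and 377 on the lower side (8.12%). The 2 comparisons share their starburst profiles, so their calls are not independent. Genes higher in both numbered 247, which is 84.0% of the first list and 70.2% of the second, and 209 were lower in both (46.7% and 52.9%). RIMS1 led again, at 0.0866 ± 0.0290 in glycinergic cells (log2 difference 7.28 ± 0.23). NPY was next, with 24.6 ± 14.9 in starburst and 0.0480 ± 0.0675 in glycinergic cells (5.31 ± 0.28). PCP4 and its relative PCP4L1, small calmodulin-binding proteins, averaged 54.6 ± 13.9 and 13.1 ± 4.66 in starburst cells, against 4.67 ± 2.38 and 0.272 ± 0.20 in glycinergic cells (3.49 ± 0.20 and 4.12 ± 0.28). SCG2, GNG7, HECW1, ISL1, MEGF11, SOX2OT, TGFB3 and GABRD made up the rest of the 12 highest, all of them also called against GABAergic cells.

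On the lower side, PNMAL2 and NECAB1 were among the 12 lowest in both comparisons. They averaged 7.66 and 3.39 in other GABAergic cells and 7.19 and 4.14 in glycinergic cells. LAMP5, a membrane protein of the lysosome family, had 1 UMI in starburst and 1442 in glycinergic cells. PROX1, a homeodomain factor, had 2 and 897 UMIs (83.6-fold lower, exact 95% counting interval 23.1 to 691), and DYNC1I1, a dynein chain, 1 and 666. CPLX3, a complexin of ribbon and some amacrine synapses, averaged 1.12 ± 0.697 in starburst and 18.1 ± 2.89 in glycinergic cells (log2 difference -3.59 ± 0.25). DAB1, the reelin adaptor, had none against 470 UMIs, which is at least 29.2-fold lower. NEUROD4, NECAB1, CCDC24 and PAK7 likewise had none, and HSPA12A, SPHKAP and PNMAL2 completed the 12 lowest.

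The calls could be looked up in the 6 libraries with 2 to 7 starburst cells, 24 cells in all, which the fits had not used. Of the 294 genes higher than in other GABAergic cells, 245 (83.3%) had a mean difference above 0 there, against 19.8% of the 3889 genes that were not called. Of the 448 lower genes 431 (96.2%) were below 0, against 80.1% of those not called. Of the 352 genes higher than in glycinergic cells 308 (87.5%) were above 0, against 23.6% of those not called, and of the 395 lower genes 382 (96.7%) were below 0, against 76.4%. All 12 higher and all 12 lower genes named in each comparison kept their sign, with RIMS1 at 5.27 against GABAergic and 6.18 against glycinergic cells. These small profiles tilt downward, since the median of the genes not called was -0.49 against GABAergic cells.

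Transcription factors moved in both directions. The list counts here and below stand beside the share called over all genes, 6.35% higher and 9.67% lower than in other GABAergic cells. Of the 8 tested of a list of 20 amacrine factors, 3 were higher and 4 lower than in other GABAergic cells (median log2 difference -0.75, against -0.13 over all genes). ISL1 averaged 16.6 ± 4.75 in starburst and 0.764 ± 0.459 in other GABAergic cells (3.79 ± 0.24). SOX2 averaged 3.35 ± 0.805 and 0.0702 ± 0.108 (2.75 ± 0.31), and its overlapping noncoding transcript SOX2OT 7.57 ± 3.51 and 0.0458 ± 0.0591 (3.78 ± 0.29). SOX2 lies within SOX2OT on the same strand, so reads of the pair may have been split between them. BARHL2, a homeodomain factor of amacrine development, averaged 2.30 ± 1.30 and 0.509 ± 0.148 (1.37 ± 0.30). MEIS2, PROX1 (2 UMIs in starburst cells), TFAP2C (none) and TCF4 (7 UMIs) were lower. Against glycinergic cells 4 of 7 were higher (ISL1, SOX2, ZFHX3, BARHL2) and 3 lower (PROX1, EBF3, NEUROD2).

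Among cholinergic genes outside the rule, 3 of a list of 19 could be tested. SLC10A4 was higher than in both classes, at 2.41 ± 0.599 in starburst, 0.00763 ± 0.0110 in other GABAergic and 0.0375 ± 0.0531 in glycinergic cells (2.49 ± 0.32 and 2.42 ± 0.34, adjusted p of 2.3e-10 or less). CHRM2, a muscarinic receptor, passed in neither, at 0.833 ± 1.11 in starburst and 0.505 ± 0.156 in other GABAergic cells. ACHE was lower than in glycinergic cells, at 0.403 ± 0.293 and 1.74 ± 0.293 (-1.37 ± 0.33, adjusted p = 0.00057), and did not pass against GABAergic cells (adjusted p = 0.18).

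For GABA, the 2 synthesis genes are given as levels, because they chose the comparison class. GAD1 averaged 16.5 ± 5.27 in starburst and 10.02 ± 0.901 in other GABAergic cells, and GAD2 0.0633 ± 0.0770 and 8.75 ± 1.22. In starburst cells GAD2 had 2 UMIs in all, next to 470 of GAD1. ABAT, which breaks GABA down, was lower than in other GABAergic cells, with 2 UMIs in the starburst cells and a level of 1.91 ± 0.476 in the other GABAergic cells (-2.10 ± 0.33). Of 5 tested genes for glycine transport and peptides NPY was higher, and CARTPT, TAC1, VIP and SLC6A9 were lower (median -2.55, or -3.29 with genes at 0 set to their bound). SLC6A9, the glycine transporter, had no UMI in the starburst cells of the 4 libraries.

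The receptors for GABA differed by subunit. Of 11 GABA and glycine receptor genes tested, 4 were higher and 3 lower than in other GABAergic cells (median 0.39). Over all genes 16.0% were called. GABRD, the delta subunit of extrasynaptic GABA-A receptors, averaged 6.38 ± 1.5 in starburst and 0.213 ± 0.0504 in other GABAergic cells (3.25 ± 0.28). GABRA4, which often pairs with delta in other brain regions, averaged 2.34 ± 0.963 and 0.126 ± 0.0779 (2.11 ± 0.32). GABRA2 was higher too (1.05 ± 0.27), with groups that overlapped. GABRA3 was lower, at 0.0990 ± 0.127 in starburst and 2.96 ± 0.633 in other GABAergic cells (-2.53 ± 0.31). GABBR2, a GABA-B subunit, had no UMI in starburst cells. GABRD, GABRA4 and GABRA2 were also higher, and GABRA3 lower, than in glycinergic cells.

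Among 13 glutamate receptors tested, 3 were higher and 2 lower, beside 16.0% called over all genes. GRM2, a group II metabotropic receptor long used to mark starburst cells, averaged 2.32 ± 0.457 in starburst and 0.201 ± 0.0979 in other GABAergic cells (2.003 ± 0.31), and its relative GRM3 1.97 ± 0.425 and 0.110 ± 0.0602 (2.01 ± 0.32). GRIN1, the obligate NMDA receptor subunit, differed by less, at 2.55 ± 1.29 and 1.05 ± 0.143 (0.88 ± 0.28, adjusted p = 0.019). GRIK2 was among the lower ones. The median of the list was -0.01, near that of all genes.

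Ion channels that shape release were uneven. Of 18 sodium, calcium and chloride handling genes 8 were higher and 5 lower than in other GABAergic cells (median 0.27). Over all genes 16.0% were called, 6.35% higher and 9.67% lower. CACNA1A and CACNA1B, the pores of P/Q-type and N-type calcium channels, averaged 2.14 ± 1.41 and 2.98 ± 1.68 in starburst, against 0.622 ± 0.367 and 0.971 ± 0.240 in other GABAergic cells (1.14 ± 0.30 and 1.05 ± 0.29, both with overlapping groups). CACNA2D1, an accessory subunit, averaged 6.50 ± 2.13 and 1.40 ± 0.578 (1.88 ± 0.25). The sodium channel pores SCN1A (3 UMIs), SCN2A1 (4 UMIs) and SCN3A (none in starburst cells) were lower, with 1.40 ± 0.431, 1.21 ± 0.298 and 2.02 ± 0.430 in other GABAergic cells. The calcium pump ATP2B1 was lower as well, at 4.30 ± 1.88 and 12.6 ± 2.19 (-1.54 ± 0.21). Of 15 potassium channel genes 2 were higher and 5 lower, beside the same share over all genes. KCNC1, the fast Kv3.1 channel known from starburst cells, averaged 14.7 ± 2.64 in starburst and 2.57 ± 0.481 in other GABAergic cells (2.30 ± 0.21). KCNA1, KCNA6, KCND3, KCNIP1 and KCNAB2 were lower.

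Of 21 vesicle release genes, RIMS1 and SYT1 were higher and 3 were lower, SYT4 and CPLX3 among them (median -0.02). Of all genes tested 16.0% were called, 6.35% higher and 9.67% lower. SYT1, the fast calcium sensor, averaged 58.9 ± 10.7 in starburst and 37.6 ± 5.58 in other GABAergic cells (0.64 ± 0.13, adjusted p = 3.9e-05). The differences of the other 20 release genes tested ran between -2.37 (CPLX3) and 0.74 (RAB3B). Of 26 wiring genes 7 were higher and 7 lower (median 0.15). Beside MEGF11, the adhesion proteins CNTNAP2 (6.65 ± 1.67 in starburst, 1.34 ± 0.133 in other GABAergic cells) and TENM2 (6.12 ± 1.84 and 1.39 ± 0.525) were higher. So were the semaphorin receptor PLXNA2 (7.32 ± 2.93 and 2.02 ± 0.270), which starburst dendrites of mouse use in their stratification, and the slit receptor ROBO2 (4.94 ± 1.48 and 1.74 ± 0.530). SEMA6A, the partner of PLXNA2 in ON starburst cells of mouse, was higher than in glycinergic cells, at 1.77 ± 0.928 and 0.368 ± 0.197 (1.32 ± 0.33). CADM1, TENM4, LRRTM2, TENM1, DSCAM and NRXN2 were among the genes lower than in other GABAergic cells.

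Metabolic and stress lists are read beside the share called over all genes, 16.0% against other GABAergic and 16.1% against glycinergic cells. None of 13 hypoxia and HIF target genes was higher than in other GABAergic cells and 3 were lower (LDHA, ALDOC, MXI1), with a median of -0.47. None of 15 was higher than in glycinergic cells and 4 were lower (PFKP, LDHA, HIF1A, NDRG1). LDHA (lactate dehydrogenase A) averaged 6.49 ± 1.04 in starburst and 9.84 ± 1.87 in other GABAergic cells (-0.56 ± 0.20, adjusted p = 0.040). VEGFA, the vessel growth factor, averaged 1.36 ± 1.02 and 1.73 ± 0.818 and did not pass. Of 17 glycolysis genes 1 was higher (SLC2A3, a neuronal glucose transporter) and 3 lower. Of 41 nuclear respiratory chain genes 3 were lower than in other GABAergic cells, with a median of -0.13 that equals that of all genes, and 9 were lower than in glycinergic cells (-0.35). Of 19 early-response and stress genes 5 were lower (HSP90AB1, FOSB, JUN, JUNB, ATF3), with a median of -0.42. JUN averaged 1.51 ± 0.872 in starburst and 3.70 ± 1.22 in other GABAergic cells (-1.14 ± 0.26). The summed Müller glia markers also stood lower in starburst than in other GABAergic cells (13.5 and 36.4 per 10000), and their part in these differences was not tested. DKK3 is one of the markers in this sum. It was itself called lower, at 1.60 in starburst and 12.7 in other GABAergic cells of the fitted libraries. Of 9 mitochondrially encoded genes 2 were higher (MT-CYTB 0.42 ± 0.13 and MT-ND1 0.41 ± 0.14). The interferon list had 3 tested genes with none called. Among trophic factors IGFBP5 was higher and PTN, FGF13 and FGF14 lower, and of the apoptosis list GADD45G alone was called (1.73 ± 0.28).

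Against glycinergic cells the median over all genes was -0.13 too, and 16.1% of genes were called (7.58% higher and 8.51% lower). The list medians of transcription factors (1.38) and of the GABA synthesis and uptake list (1.74) were above 0 there, and below 0 against other GABAergic cells (-0.75 and -0.30). Of 11 glutamate receptors 4 were higher (GRM3, GRM2, GRM8, GRIN2B) and 1 lower (GRIK2), with a median of 0.56. Of 18 sodium, calcium and chloride genes 7 were higher and 2 lower (0.37), and of 12 potassium channel genes 3 were higher and 3 lower (0.14). Of 22 vesicle release genes RIMS1, CPLX2, SYT11, SNAP25 and SYT1 were higher and 4 were lower, SYT4, SV2B and CPLX3 among them (0.19). Of 21 wiring genes 7 were higher and 5 lower (0.31), and both tested genes of the GABA synthesis and uptake list were higher, SLC6A11 among them. JUN and ATF3 were the only 2 of 19 early-response and stress genes called, both lower. Among trophic factors IGFBP5 was higher and MDK, PTN, FGF1 and IGF1 lower, GADD45G was again higher, and none of 3 interferon genes was called.

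**Figure D4:**
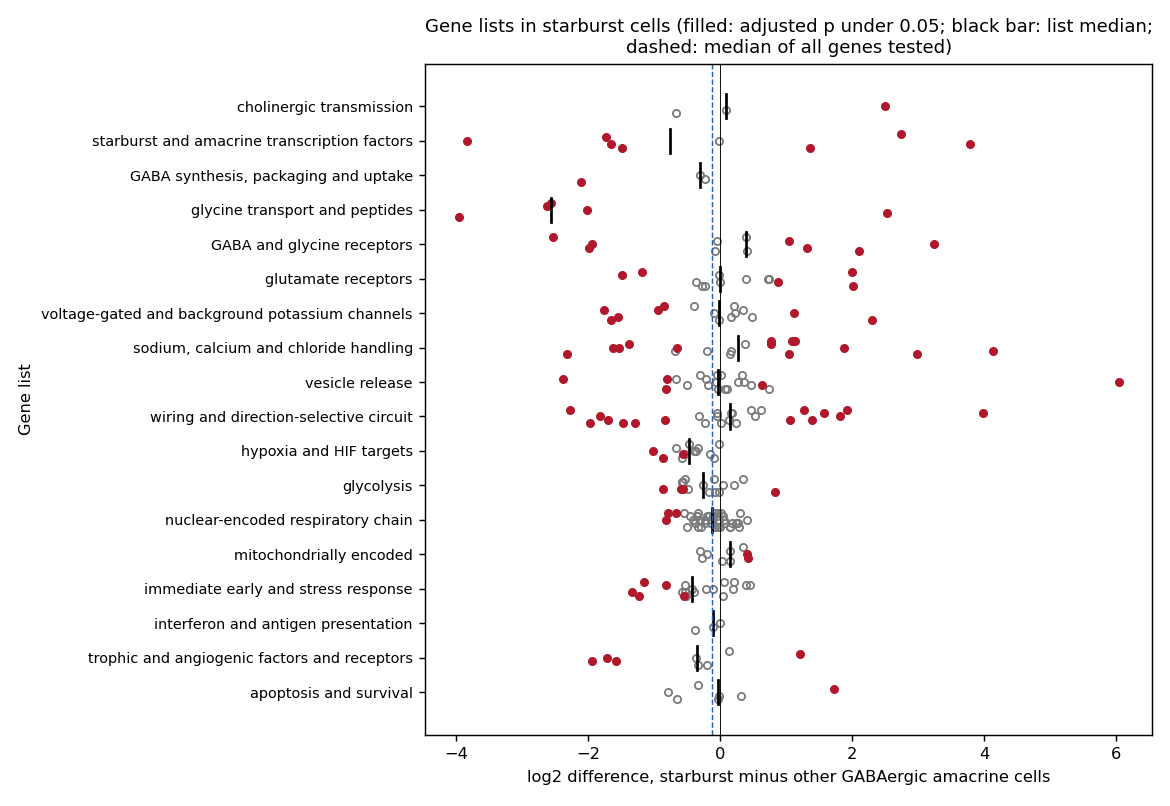
Log2 difference between starburst and other GABAergic amacrine cells (x axis, starburst minus other GABAergic) for the tested genes of 18 lists. Filled red points passed the test at an adjusted p under 0.05, open grey points did not, black bars are list medians and the dashed blue line is the median of all 4631 genes tested (-0.13). RIMS1 stands alone at 6.05 among the vesicle release genes, and the hypoxia list has no point above 0.

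The question of the series was what oxygen-induced retinopathy changes. In starburst cells 6 libraries had at least 5 cells and entered one additive model of oxygen, age and fraction (OIR whole-retina P14 replicates 1, 2 and 3 and P17 replicate 1, and NORM whole-retina and rod-depleted at P14). Age was then carried by 1 P17 library and fraction by 1 rod-depleted library of 5 cells. XIST, the noncoding RNA of the inactive X chromosome in female cells, stood at 19.6, 22.3 and 0 per 10000 in starburst cells of the P14 OIR libraries and 0 at P17, against 17.4 in whole-retina and 7.88 in rod-depleted NORM retina. It was likewise at 0 or 0.0142 in the other GABAergic and glycinergic cells of the 2 OIR libraries without it. The part of this difference between libraries in the oxygen and age terms was not tested. The oxygen difference therefore compares the 3 whole-retina OIR libraries at P14 with the 1 NORM P14 whole-retina library, the one that stands apart. Of 4394 genes tested, 1 was called (0.0228%) and 55 had an unadjusted p under 0.05. Chance alone would put a share of 0.05 of genes there, more than was seen here, for age or for the comparison with other GABAergic cells below. The term for rod depletion, which rests on 1 library of 5 cells, went above that share. In the values that follow, OIR libraries are given in that order and NORM as whole retina, then rod-depleted.

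That gene was HSPA8. Its levels in starburst cells of OIR retinas were 8.03, 9.60 and 7.22 at P14 and 10.5 at P17, against 0.398 and 12.4 in NORM retina (log2 difference 3.28 ± 0.53, adjusted p = 0.014). The rod-depleted NORM library stood above all 4 OIR libraries, so the groups overlapped. The low value of the whole-retina NORM library was found over all of its cells (0.567 per 10000, see above), in its other GABAergic cells (0.490) and in its glycinergic cells (0.651). In the library of the same sequencing run, whole-retina OIR replicate 1 at P14, HSPA8 stood at 10.6 over all cells. The term for rod depletion called HSPA8 too (3.84 ± 0.65, adjusted p = 0.026, 1 of 4394 called or 0.0228%), which sets the same NORM library against the rod-depleted one. The term cannot be fitted without the whole-retina NORM library. HSPA8 also has near-identical copies in the genome, and reads may have been divided among them.

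POMC came second by unadjusted p and did not pass (log2 difference 3.13 ± 0.66, adjusted p = 0.19). It stood at 3.84, 15.5 and 14.6 in OIR starburst cells at P14 and 4.44 at P17, against 0.663 in whole-retina and 5.97 in rod-depleted NORM retina. The 15.5 and 14.6 are from OIR replicates 2 and 3, which share a sequencing run that held no NORM library. The 3.84 and 4.44 lay below the rod-depleted NORM value. What part the run had in these values was not tested. By cells, POMC was detected in 2 of 7, 10 of 11, 5 of 14 and 6 of 12 starburst cells of those OIR libraries, against 2 of 22 and 2 of 5 in those NORM libraries. The log2 difference was 1.90 in the pair of libraries from the same run and 1.63 with oxygen alone in the model. It would be called without the rod-depleted NORM library (adjusted p = 0.00035) or without the OIR library at P17 (adjusted p = 0.00016). In those fits the whole-retina NORM library is the only NORM library or carries the oxygen term as before.

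The next genes by unadjusted p, GM26924, GNAT1, RPS3A1, TSIX, PDE6G, AEBP2, MALAT1, PCP2 and RPL3, had adjusted p-values of 1.0. GNAT1 and PDE6G are rod phototransduction genes, and PCP2 marks rod bipolar cells. GNAT1 stood at 7.23, 1.10, 2.45 and 1.15 in the 4 OIR libraries and at 0 in both NORM libraries. Over the same libraries the sum of 8 rod markers in starburst cells ran between 8.98 and 56.7 per 10000 in OIR and between 5.33 and 7.66 in NORM, and its part in these values was not tested. AEBP2 (log2 difference -2.37) stood at 0.164, 0.263, 0.224 and 0.487 in the 4 OIR libraries, against 3.20 and 0 in NORM, so the rod-depleted NORM library lay below all OIR libraries. TSIX, which differed by -2.60, is antisense to XIST, described above for these libraries, and their reads cannot be told apart without strand. RPS3A1 was at 0 in whole-retina NORM starburst cells, as it was nearly so over all cells of that library.

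**Figure D5:**
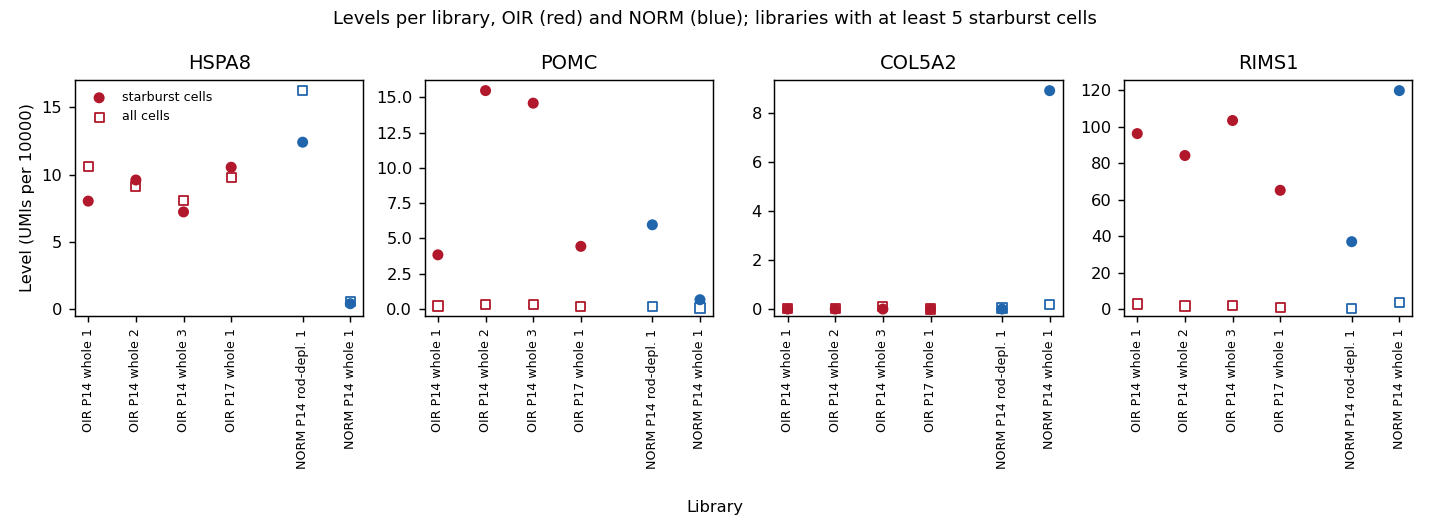
Level (y axis, UMIs per 10000) of HSPA8, POMC, COL5A2 and RIMS1 in starburst cells (filled circles) and in all cells (open squares) of the 6 libraries with at least 5 starburst cells, OIR in red on the left of each panel and NORM in blue on the right. HSPA8 is low in the NORM P14 whole-retina library in both measures (0.398 and 0.567), and COL5A2 is above 0 in starburst cells of that library alone (8.93).

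The genes that define the cells did not pass between OIR and NORM. ISL1 stood at 18.3, 20.5, 12.1 and 13.0 in OIR, against 20.95 and 13.2 in NORM (log2 difference -0.33 ± 0.47). SOX2 stood at 3.92, 3.42, 3.85 and 3.95, against 2.19 and 1.91 (0.65 ± 0.61, adjusted p = 1.0). GAD1 differed by -0.09 ± 0.46, SCG2 by -0.07 ± 0.41, KCNC1 by 0.15 ± 0.52 and CALB2 by -0.58 ± 0.40. NPY had an unadjusted p of 0.019, with 28.6, 42.8, 30.5 and 10.1 in OIR, against 14.9 and 18.3 in NORM (1.14 ± 0.45, adjusted p = 1.0). A p above the threshold in this design does not show that these genes were alike.

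Of 11 hypoxia and HIF target genes tested, none was called and none had an unadjusted p under 0.05 (median log2 difference -0.13, against -0.04 over all genes). VEGFA stood at 3.04, 2.74, 0.290 and 1.23 in OIR, against 1.16 and 2.26 in NORM (0.33 ± 0.82), and LDHA at 4.46, 5.36, 7.87 and 6.46, against 6.26 and 3.79 (-0.11 ± 0.56). None of 16 glycolysis genes (median -0.22), 42 respiratory chain genes (-0.26), 9 mitochondrially encoded genes (0.01), 23 vesicle release genes (-0.18), 4 cholinergic genes (0.16) or 4 GABA genes (0.05) was called. Of 19 early-response and stress genes HSPA8 alone was (median 0.32). None was called among 8 transcription factors (0.08), 9 GABA and glycine receptors (-0.15), 11 glutamate receptors (0.03), 14 potassium channel genes, 15 sodium, calcium and chloride genes (-0.16) or 21 wiring genes (-0.06). Nor was any called among 2 peptide genes, 5 trophic factors, 6 apoptosis genes or 1 interferon gene.

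Between P17 and P14, which rests on the single P17 library, 1 of 4394 genes was called (0.0228%) and 87 had an unadjusted p under 0.05. GM26924, a predicted noncoding gene whose reads may be shared with other loci, fell to 1.31 at P17, against 10.1, 24.4 and 27.2 in OIR and 4.81 and 8.36 in NORM at P14 (-3.42 ± 0.56, adjusted p = 0.016). In P17 profiles too small for the model GM26924 stood at 1.79 (4 cells, whole-retina OIR replicate 2), 18.0 (3 cells, rod-depleted OIR) and 39.0 (2 cells, whole-retina NORM), so the P17 libraries did not all lie low. Over all cells GM26924 stood at 1.56 to 3.31 in the 5 P17 libraries and at 2.33 to 18.0 in the 7 P14 libraries, which overlap. The starburst values of 24.4 and 27.2 are from OIR replicates 2 and 3 at P14, which share a sequencing run. Over all cells of these libraries it stood at 18.0 and 17.4, and the part of the run was not tested.

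Whether an oxygen difference was larger in starburst than in other GABAergic cells could not be fitted with at least 10 cells a library, since a single NORM library qualifies. With at least 5, none of 4638 genes was called in limma (0.0%) and 64 had an unadjusted p under 0.05.

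Starburst cells also varied among themselves. Over 1445 genes with at least 40 UMIs the median index of dispersion, the variance of UMIs over that of chance draws at each cell's depth, was 1.23. The genes named next were chosen after their values were seen and carry no test. POMC reached 8.61, with 159 UMIs in 31 of 83 cells and up to 23 in a cell. PNOC, the nociceptin precursor, was in 25 cells (74 UMIs), CSRP3, a LIM-domain protein of striated muscle, in 37 (79 UMIs) and COL5A2, a fibrillar collagen chain, in 13 (35 UMIs). In other GABAergic cells these 3 were in 0.268%, 0.469% and 0.134%. POMC and PNOC met in 6 cells, POMC and CSRP3 in 13, PNOC and CSRP3 in 12 and POMC and COL5A2 in 1. These counts were not set against those of chance, and COL5A2 lies under the cut of 40 UMIs given above. FEZF1, the ON-cell factor, was in 7 cells, 1 of which had POMC, 1 PNOC and 5 CSRP3. With so few UMIs a cell, absence of a gene in a cell was not detectable at this depth.

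Part of this variation followed libraries. All 13 cells with COL5A2 came from the NORM P14 whole-retina library (13 of 22 cells there, none of 61 elsewhere), in which COL5A2 stood at 8.93 in starburst cells and 0.0253 in other GABAergic cells. Over all cells COL5A2 stood at 0.197 there, above the other whole-retina libraries (0.00382 to 0.112). Rod-depleted libraries stood at 0.0233 to 0.301. Of the 59 COL5A2 UMIs over all cells of that NORM library, 35 were in its starburst cells. PNOC was in 14 of 22 starburst cells of the same library, where POMC was in 2. In whole-retina OIR replicates 1, 2 and 3 at P14 PNOC was in 2 of 7, 3 of 11 and 3 of 14 cells, and POMC in 2, 10 and 5. In whole-retina OIR replicate 1 at P17 PNOC was in 2 of 12 cells and POMC in 6. CSRP3 was spread more evenly, in 12 of 22 cells of the whole-retina NORM library and in 4 of 7, 6 of 11, 6 of 14 and 7 of 12 of the OIR libraries.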

How the data were processed

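Dissociated retinal cells were run on Drop-seq, which captures RNA 3′ ends on barcoded beads. Tools listed in the submitters' processing notes are bcl2fastq and STAR 2.4.0, with builds mm10 and GRCm38. Which annotation served for counting, how strand and multi-mapping reads were handled and whether doublets were removed is not given in the sources used here. Deposited by the authors was 1 table of 21408 genes with values on a natural log scale, ln(1 + UMIs / cell total × 10000). Of these, 100% of the non-zero ones gave whole UMIs within 0.05. Another 5799 columns, in 7 sets, fit no library by name and were left out. Libraries held 404572 to 7864609 UMIs.

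The members, gene lists and tests were chosen with earlier results of these data known. Columns with at least 200 genes above 0 were kept. Levels were averaged per library and class, genes with a mean under 0.5 per 10000 were dropped, and log2(level + 0.5) was fitted with limma 3.58.1 (moderated statistics with a trend) in R 4.3.3, two-sided, with Benjamini-Hochberg adjustment over all genes tested at a threshold of 0.05. Its p-values borrow the spread of all genes, since 3 residual degrees of freedom are left in the class comparisons and 2 in the oxygen model. Class comparisons needed 10 cells a library. The oxygen, age and fraction model had too few such libraries, and the fallback of 5 cells was used. The added 0.5 makes fold changes of weakly expressed genes look smaller than they are. Ratios of 1 to 3 UMIs carry exact 95% counting intervals. Shares were compared by exact permutation (SciPy 1.17.1, Python 3.11.15). The text names the 12 highest and 12 lowest called genes of each comparison, the 10 smallest p-values where fewer than 5 genes were called, and listed or defining genes. The fits were also run on simulated data with the same library-to-library spread for every gene. Genes here differ in spread, so that run says nothing of their p-values. Gene positions are from GENCODE M21, which 20007 of the 21408 symbols matched, and promoters from RefSeq (GRCm38.p6). Some genes are not reported here.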

Additional observations from a re-analysis of the deposited data

Results flagged for a closer look

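Among 26 groups of 4 or 8 libraries examined for a single library far from the rest, 1 held one, which is about what chance gives at 1 in 20. SLC10A4 in starburst cells stood at 3.10 per 10000 in whole-retina OIR replicate 3 at P14, against 2.42, 2.497 and 2.39 in the other OIR libraries with at least 5 starburst cells. These levels rest on 5, 10, 8 and 13 UMIs.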

How the results depend on the processing

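All 26 genes followed against other GABAergic cells and all 24 against glycinergic cells kept their direction and their call under every alternative that was run. Alternatives that left out a library not used by a fit only repeated the main fit. Counts of calls moved more. Against other GABAergic cells (742 called) no filter on low levels gave 1201 (252 higher, 949 lower). Leaving out a library of the fit gave fewer calls each time, 499 to 636. Against glycinergic cells (747 called) leaving out a library of the fit gave 579 to 632. After seeing the data 2 alternatives were added. Without cells that had 3 markers of another class and with at least 5 cells a library, 341 and 318 genes were called. With at least 3 of the 4 rule genes and 3 cells a library, 431 and 444 were called. Both used 3 libraries in place of 4. The oxygen term called 0 genes at a pseudocount of 1 and with no filter, 2 with weights by cell number and 10 with oxygen alone (7 higher, 3 lower). Without the whole-retina OIR library at P17 it called 2. HSPA8 was not called at a pseudocount of 1, with no filter or with oxygen alone (adjusted p of 0.084, 1.0 and 0.32). Age rests on 1 P17 library and fraction on 1 rod-depleted library in every fit. Calls of both terms came and went between settings, and their counts are not given. The share difference between OIR and NORM (-0.061 percentage points) turned to 0.152 with cells thinned to 1000 UMIs, 0.030 with at least 3 rule genes and 0.032 with at least 400 genes, and ran between -0.187 and 0.114 without a library. The share difference between rod-depleted and whole retina (-0.382) was -0.201, -0.102 and -0.323 with cells thinned to 500, 300 and 1000 UMIs, -0.104 with at least 3 rule genes and -2.02 as a share of amacrine cells, none of these with an exact permutation p under 0.05. It was -0.422 with at least 400 genes (exact permutation p = 0.033), and ran between -0.438 and -0.314 without a library. For P17 against P14 (-0.224) it was -0.042, -0.017 and -0.399 with cells thinned to 500, 300 and 1000 UMIs (exact permutation p of 0.80, 0.725 and 0.075), -0.044 with at least 3 rule genes and -0.414 with at least 400 genes, and ran between -0.295 and -0.145 without a library, with an exact permutation p of 0.0125 without rod-depleted OIR replicate 2 at P14. The cause was not tested. At least 20 cells a library, and the stricter cell rules at 10 cells, left too few libraries, and the oxygen term could not be fitted without the NORM P14 whole-retina library. Without whole-retina OIR replicate 1, 2 or 3 at P14, fewer than 2 residual degrees of freedom were left and it was not fitted either. No paired analysis was possible because NORM has 1 library in each group, so the groups compared share fewer than 2 replicate numbers. Libraries that share a sequencing run are given as untested pairs. Depth limits the low genes: with about 20 starburst cells or fewer a library, a gene near 0.5 per 10000 is a few UMIs.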
